A study of Betula luminifera with 2 samples.

Results

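MicroRNAs (miRNAs) of the families miR156, miR529 and miR535 were described in Betula luminifera, a birch grown for timber, together with the transcripts listed as cut at their sites. Members were the entries matched to miRBase, the public miRNA registry, named miR156, miR157, miR529 or miR535 with any prefix or suffix, and the degradome alignments of those names. The rule found 18 of the 505 distinct sequences of the small RNA table and 23 of the 108 alignments of the degradome table. Of the 18 sequences, 15 were named miR156, 1 miR529 and 2 miR535, and none miR157, a name for near-identical sequences. Both libraries came from seedlings of a single clone, G49#, raised in tissue culture to 2 months of age, with equal RNA amounts of root, stem and leaf pooled. The small RNA library and the degradome library had 1 sample each, so no tissue or condition could be compared and no test between samples was possible. Degradome sequencing reads polyadenylated RNA fragments from the 5′ end that cleavage leaves.

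In plants, a miRNA guides an Argonaute protein to a nearly complementary site, where the transcript is cut opposite the middle of the miRNA. miR156 is best known for cutting transcripts of SPL transcription factors (SQUAMOSA promoter binding protein-like), which holds seedlings of Arabidopsis in the juvenile phase. miR529 and miR535 are relatives in sequence that are also linked to SPL transcripts. The target transcripts carry assembly names only, so which of them are SPL genes was not analysed here. In each hairpin precursor the 5′ arm carries the miR156 sequence known to act on SPL transcripts, and the 3′ arm its passenger partner.

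The 5′-arm sequences below show how closely the families resemble each other. They are written 5′ to 3′ as DNA letters, with the seed (bases 2 to 8) in capitals.
mtr-miR156e: tTGACAGAagatagagagcac
gma-miR156a_L+1: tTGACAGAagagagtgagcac
gma-miR156b_L+1R-1: tTGACAGAagagagagagcac
mtr-miR156b-5p: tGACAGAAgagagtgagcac
mtr-miR156e_L+2R-2: tGTTGACAgaagatagagagc
bdi-miR529-5p: aGAAGAGAgagagtacagcct
osa-miR535-5p: tGACAACGagagagagcacgc
The suffix in a name is the authors' note of how the read differs from the registry sequence (L and R for bases added or missing on the left and right), per the file headers. Positions are counted from 1 at the 5′ end of mtr-miR156e, the most-read member, and a substitution gives its base first. The gma-miR156b form differed from it by T12G alone, and the gma-miR156a form by T12G and A15T. mtr-miR156b-5p carried the same changes, T12G and A15T, and started 1 nt later. bdi-miR529-5p started 5 nt later and was identical at 14 of 16 overlapping bases, differing by T12G and C19T. osa-miR535-5p shared the 5 bases of its 5′ end and a run of 9 bases (its bases 11 to 19) with mtr-miR156e, but the runs lay at different distances in the 2 sequences. Among the 10 members of the 5′ arm, 5 seeds occurred. The seed of mtr-miR156e was shared by 4 sequences with 17036.5 reads and that of mtr-miR156b-5p by 3 sequences with 976 reads, while the other 3 seeds belonged to 1 sequence each.

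Nearly all reads of these families were miR156. The members held 18824.5 of 607592 listed reads, or 3.10% (exact Clopper-Pearson 95% interval 3.05 to 3.14%), and miR156 alone held 18801.5. Intervals are of this kind throughout and cover counting error only, because amplified reads need not be separate molecules. Values that are not whole come from reads that fit several entries, which among the members touched 1 entry. With the table's most-read sequence, a miR166, left out of the denominator, the members' share was 20.0%. The median member had 36.5 reads, against 9 over all 179 matched sequences.

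Within the 5′ arm of miR156 one sequence carried most of the signal. mtr-miR156e, identical to its registry sequence, had 16870 reads, 89.6% of all member reads (89.2 to 90.1%), and was in place 3 among all 505 sequences by reads. mtr-miR156b-5p followed with 912 reads, 4.84% (4.54 to 5.16%). The form with 2 bases more on the left and 2 fewer on the right, mtr-miR156e_L+2R-2, had 169 reads. The next forms were nta-miR156g_L+1R+2 with 91.5 reads, gma-miR156a_L+1 with 66 and stu-miR156f-5p_L-1R+2 with 60. The last forms of the 5′ arm were rare, with 9 reads for gma-miR156b_L+1R-1 and 4 for mtr-miR156b-5p_R+3. Within this arm the order thus falls by a large step after mtr-miR156e and again after mtr-miR156b-5p, and the intervals of neighbours on the arm overlapped only from nta-miR156g_L+1R+2 to stu-miR156f-5p_L-1R+2 and between the last 2 forms.

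miR529 and miR535 had few reads, beside a median of 9 over all matched sequences. bdi-miR529-5p had 3 reads, 0.0159% of member reads (0.00329 to 0.0466%), and matched precursors of 4 species in the registry, all grasses (codes bdi, osa, sbi and zma). miR529 is missing from Arabidopsis. In this library the name rests on few reads and on no birch locus. osa-miR535-5p had 7 reads and osa-miR535-3p had 13, so the 3′ arm held 65% of 20 reads (40.8 to 84.6%), an interval that includes equal arms. miR535 matched precursors of 9 species, among them a moss (ppt), grape (vvi) and rice (osa). None of these 3 sequences was placed on a contig, and none had a listed target. For comparison, mtr-miR156e matched 90 precursors of 33 species.

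The 5′ arm held 18181.5 miR156 reads against 620 for the 3′ arm, a ratio of 29.3. The most-read sequences of the 3′ arm are shown because they hold most of that arm's reads.
mtr-miR156h-3p_2ss6TC10TG: gCTCTCTAtgcttctgtcatc
mes-MIR156e-p3: tGCTCACTtctctttctgtcagc
gma-MIR156w-p3_1ss19AG: gCTTACTCtctatctgtcgtc
These had 340, 195 and 76 reads. The other 3′-arm forms of miR156 had 4 reads (zma-MIR156f-p3_1ss20CA), 3 reads (tcc-MIR156f-p3_1ss20GA) and 1 read each (ptc-MIR156k-p3 and mtr-miR156i-3p_R+2_1ss22TG). The median was 63 reads over the 10 sequences of the 5′ arm and 8.5 over the 8 of the 3′ arm, miR529 and miR535 included.

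**Figure D1:**
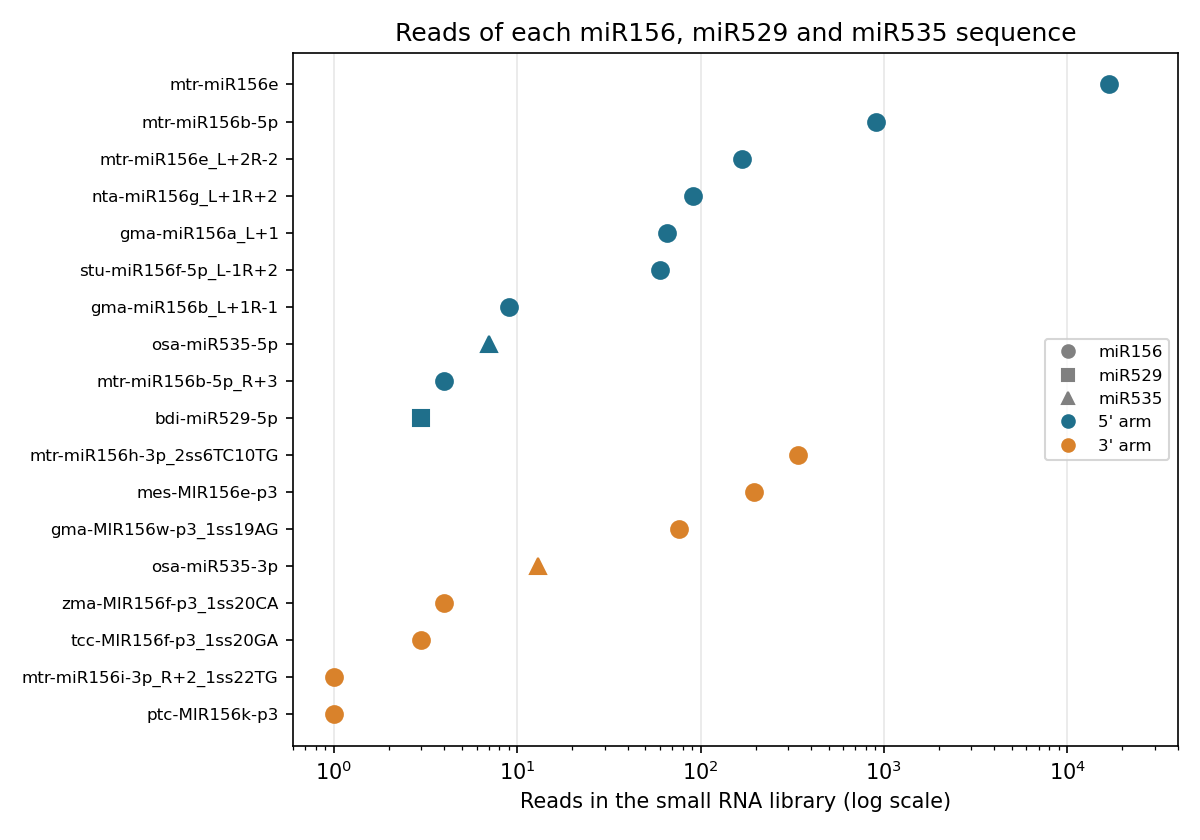
Reads of each of the 18 member sequences in the small RNA library (x axis, log scale), grouped by hairpin arm (colour) and family (marker shape), with 1 point per sequence. mtr-miR156e at 16870 reads stands apart from mtr-miR156b-5p at 912, and the miR529 and miR535 points lie between 3 and 13 reads.

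Of the 18 members, 11 were listed on 4 contigs, and the listed balance of the arms differed between them. The other 7 were placed on no contig. Among them was mtr-miR156h-3p_2ss6TC10TG, with 340 of the 620 miR156 reads of the 3′ arm. Which hairpin these reads belong to was not analysed, so the 3′-arm shares below cover placed members only. On contig_149866 (minus strand, 1193 to 1290) the 5′ arm had 16870 reads and the 3′ arm 3, or 0.0178% (0.00367 to 0.0520%). That hairpin had a folding energy of -53.1 kcal/mol and the highest folding energy index of the 4 contigs, 1.5, against 1.0 to 1.2 for the hairpins of the other 3. On contig_268403 (minus strand) the arms had 972 and 76 reads, or 7.25% for the 3′ arm (5.76 to 8.99%). On contig_212930 (plus strand, 1310 to 1406) the 3′ arm led, with 199 of 265 reads, 75.1% (69.4 to 80.2%). All 3′-arm reads listed on contig_268403 and contig_212930 were of sequences that differ by 1 base from their listed hairpin. No contig hairpin holds these sequences letter for letter, so their placement is uncertain too. The 912 reads of mtr-miR156b-5p are listed on contig_268403, but their sequence also lies within the hairpin of contig_212930, so the balance of either hairpin depends on where they belong. Counted on contig_212930, a choice made after seeing the data, they changed both balances. The 3′ arm then held 16.9% of 1177 reads there (14.8 to 19.2%). On contig_268403 it held 76 of 136 reads (55.9%, 47.1 to 64.4%), an interval that includes equal arms. On contig_38948 (minus strand) 178 of 179 listed reads were of the 5′ arm, but 169 of these were mtr-miR156e_L+2R-2, whose letters the contig_149866 hairpin holds instead. Without them the arms had 9 reads and 1 read.

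Read sequences and contig hairpins did not always match letter for letter. Of the 11 placed members, 5 differed by 1 base from the hairpin they were listed on. Among them, mtr-miR156e_L+2R-2 was listed on contig_38948, whose hairpin differs from it by G14T (hairpin base first, counted along the read). The hairpin of contig_149866 held all of its bases without a change, in a position that starts 2 nt before mtr-miR156e. The other 4 were mes-MIR156e-p3 (A23C), gma-MIR156w-p3_1ss19AG (A19G), stu-miR156f-5p_L-1R+2 (A21C) and zma-MIR156f-p3_1ss20CA (T22C). These 4 changes lay within the last 3 bases of the read. The longer form nta-miR156g_L+1R+2 equals mtr-miR156e with 2 more bases at its 3′ end, and both differ from the contig_149866 hairpin (A22T and A23T). In all, 7 members with 18030 reads, 95.8% of member reads (95.5 to 96.1%), were held letter for letter by at least 1 contig hairpin.

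The 5′ start matters because it sets the cut, which falls opposite base 10 of the miRNA. Of 18181.5 reads of the miR156 5′ arm, 17036.5 started with mtr-miR156e (93.7%, 93.3 to 94.0%), 976 started 1 nt later (5.37%, 5.04 to 5.71%) and 169 started 2 nt earlier (0.930%, 0.795 to 1.08%). Per the file headers, a listed sequence is the leading read of its cluster, so forms under it were not counted here.

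Degradome targets were listed for 10 of the 18 members, 8 of the 5′ arm and 2 of the 3′ arm, all of them miR156. The share of all 505 sequences with a listed target was not counted. The members' targets came to 9 transcripts, 5 for the 5′ arm and 4 for the 3′ arm, with 11 listed positions. These transcripts held between 1 and 7574 degradome reads, so the precision of a share differed widely between them. None of these transcripts was listed for another family or candidate. How many of all 64 target transcripts were listed for 1 family alone was not counted, so this cannot be called particular to the members. The sites of the 5′-arm targets are printed 5′ to 3′ as RNA, with the base where the cleaved fragment begins in capitals.
CL6199.Contig2 (1751 to 1771): gugcucucucuCuucugucaa
Unigene25360 (120 to 140): gugcucucucuCuucugucau
Unigene27322 (643 to 662): acgcucccucUcuucuguca
Unigene4487 (2063 to 2084): gugcucguuuuuUuucugucaa
Unigene5829 (656 to 676): gcucucuaucuUcugucaucg
The sites of CL6199.Contig2 and Unigene25360 shared a run of 20 bases. All 5 sites held the letters UUCUGUCA, read on the listed strand, which pair with the 5′ region of miR156. None of the 4 sites of the 3′ arm and none of the 55 transcripts listed for other miRNAs held them within the site, which follows from listing sites by their pairing.

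The deepest cut lay on CL6199.Contig2, a transcript of 2251 nt. Position 1762 held 144 of 333 degradome reads, 43.2% (37.9 to 48.8%), and position 1761 held 45, or 13.5% (10.03 to 17.7%). The next highest position, 1758, held 17 reads, and the median over the 25 positions with reads was 5. Within 10 nt of the cut lay 211 reads, 63.4% of the transcript's reads (57.9 to 68.5%). All 144 reads matched that place alone. In the authors' deposited table position 1762 was of category 0, with p-values from 0.0037 to 0.0138 over 4 members, and position 1761 of category 2, with p-values from 0.207 to 0.489 over 3 members. What each category means was not stated in the sources used here.

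The table places each listed position opposite base 10 of its miRNA. Position 1762 lies opposite base 10 of the 4 members that start with mtr-miR156e, and position 1761 opposite base 10 of the 3 that start 1 nt later. On Unigene25360, of 258 nt, the same pair of positions occurred. Position 131 held 13 of 20 reads, 65% (40.8 to 84.6%), and position 130 held 3 reads, as did position 224, far from the site. In the authors' deposited table position 131 was of category 0 and position 130 of category 2.

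The cut positions were divided less unevenly than the miRNA starts. Over the positions opposite base 10 of the 3 starts, CL6199.Contig2 had 76.2% of 189 reads (69.5 to 82.1%) at the mtr-miR156e position and 23.8% (17.9 to 30.5%) at the position of the later start. The later start made up 5.37% of listed miR156 5′-arm reads (5.04 to 5.71%), an interval that does not overlap the one of the cuts. Forms under a cluster's leading read are missing from the small RNA share, so the 2 shares are not the same measure. On Unigene25360 the later position had 18.8% of 16 reads (4.05 to 45.6%), which does not differ beyond counting error from either value. No read lay at the position of the start 2 nt earlier on either transcript, which at the limit of 3 reads allows shares of up to 1.59% of 189 reads and 18.8% of 16 reads, or 1.93% and 20.6% by the exact interval. The 0.930% share of that start among small RNAs lies within these limits. Position 1763 of CL6199.Contig2, opposite base 10 of none of the 3 starts, held 5 reads, which are not among the 189. The intervals describe these libraries, and other sources of the reads at position 1761 were not tested.

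**Figure D2:**
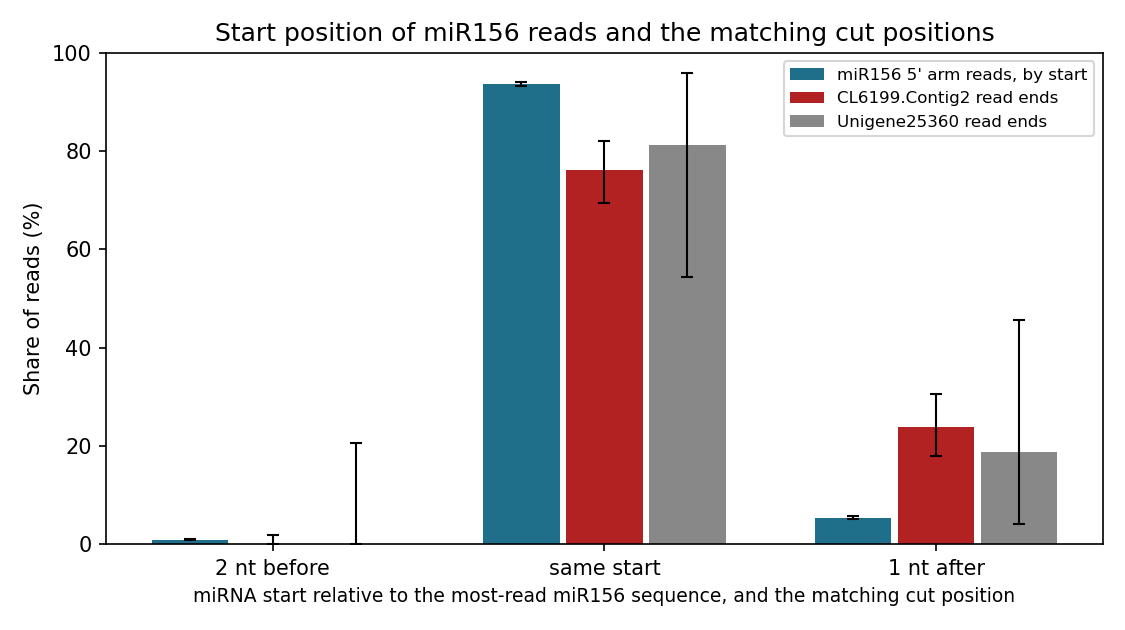
Share of reads (y axis, %) for miR156 5′-arm small RNAs by their start relative to mtr-miR156e, beside the share of degradome reads at the matching cut position of CL6199.Contig2 and Unigene25360. Bars show 1 library each and error bars exact 95% binomial intervals. The start 1 nt after holds 5.37% of listed miR156 5′-arm reads, and its position 23.8% of the CL6199.Contig2 read ends at the matching positions. Small RNA shares count only the leading read of each cluster.

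Pairing and abundance did not follow a common order among the members listed at these sites. On CL6199.Contig2 the only member paired at every base was gma-miR156b_L+1R-1, with a score of 0 in the authors' deposited table and 9 small RNA reads. gma-miR156a_L+1, with 66 reads, had 1 mismatch at base 15 and a score of 1. mtr-miR156e, with 16870 reads, had 1 mismatch at base 12 and a score of 2 in the authors' deposited table. nta-miR156g_L+1R+2, with 91.5 reads, had the highest score of the 4, 3.5. Among the members that start 1 nt later, scores of 1, 2 and 3 went with 912, 60 and 4 reads. On Unigene25360 the scores of the first 3 were 1, 2 and 3, because base 1 of these members was unpaired as well. A higher score means poorer pairing. It was recomputed as 1 per mismatch or gap and 0.5 per G:U pair, doubled from base 2 to 13, which gave the deposited score for 23 of 23 member alignments. Since these members share the cut position, its reads cannot be assigned to one of them.

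The site of Unigene5829, a transcript of 1244 nt, had another pairing. Of the 19 bases of mtr-miR156e that fall within the listed site, 18 paired, base 12 included, and base 1 did not. The table lists this transcript only for mtr-miR156e_L+2R-2, at position 667, with 3 of 39 reads (7.69%, 1.62 to 20.9%). Position 665, opposite base 10 of mtr-miR156e, had 0 reads, which allows up to 7.69% of the reads there. Positions 48 and 1190, far from the site, had 9 reads each. In the authors' deposited table the listed position was of category 3, with a p-value of 0.0802.

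The remaining transcripts of the 5′ arm gave little. Unigene27322 had 1 read in all, at position 653 (category 4), opposite base 10 of mtr-miR156b-5p and stu-miR156f-5p_L-1R+2. Unigene4487 was read along its whole length, with 5937 reads at 581 positions. Its listed position 2075 held 12 reads, 0.202% (0.104 to 0.353%), in place 168 by reads, while position 932 held 61. That site pairs with a gap and at least 3 G:U pairs, and it was listed only for the rarer gma-miR156a_L+1 and gma-miR156b_L+1R-1.

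**Figure D3:**
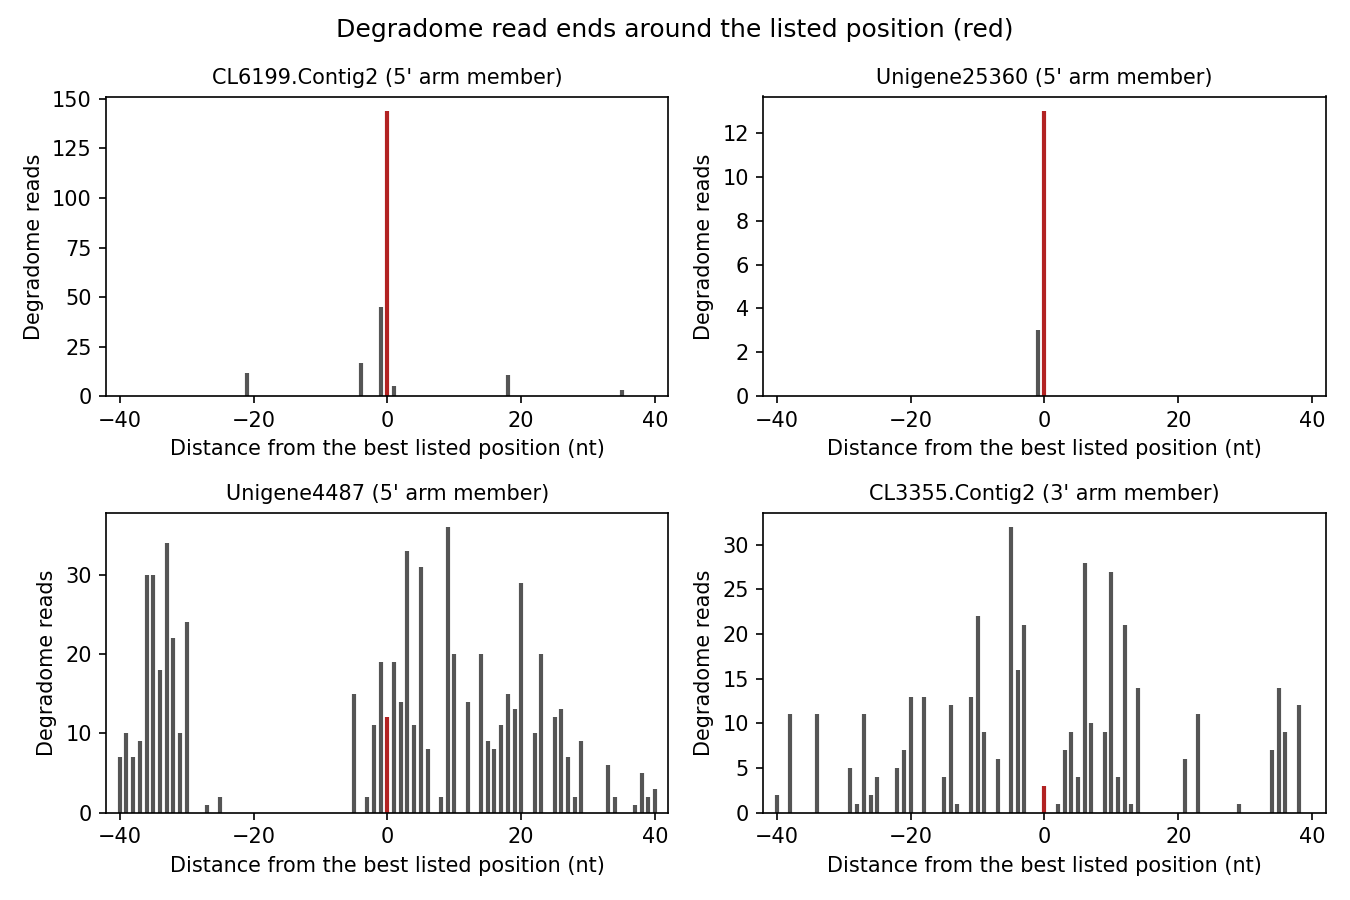
Degradome reads (y axis) by distance in nt from the best listed position (x axis, red line at 0) on 4 transcripts, each with its own y scale. The listed position is the highest on CL6199.Contig2 (144 reads) and Unigene25360 (13 reads), and lies among higher neighbours on Unigene4487 (12 reads) and CL3355.Contig2 (3 reads).

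Targets of the 3′ arm were listed for 2 rare members, ptc-MIR156k-p3 with 1 small RNA read and tcc-MIR156f-p3_1ss20GA with 3. The best of them was Unigene28625 at position 44, shown with the cleaved fragment's first base in capitals.
Unigene28625 (33 to 53): uuucuugaagaAgagaagaga
All 8 reads of this transcript of 301 nt lay at that position (63.1 to 100%), which was of category 1 with a p-value of 0.00856 in the authors' deposited table. With a single position on the transcript, no other position was there to set it against. The 3 transcripts listed for ptc-MIR156k-p3 showed no peak at the site. CL3355.Contig2 had 3 of 509 reads at position 61 and 32 at position 56. CL4366.Contig1 had 9 of 1700 reads at position 646, and 40 at positions 628 and 639 each. CL2530.Contig1 had 1 of 7574 reads at position 895 and 59 at position 1243. In the authors' deposited table these 3 had p-values of 0.914, 0.977 and 0.587. The most-read 3′-arm member, mtr-miR156h-3p_2ss6TC10TG, had no listed target.

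**Figure D4:**
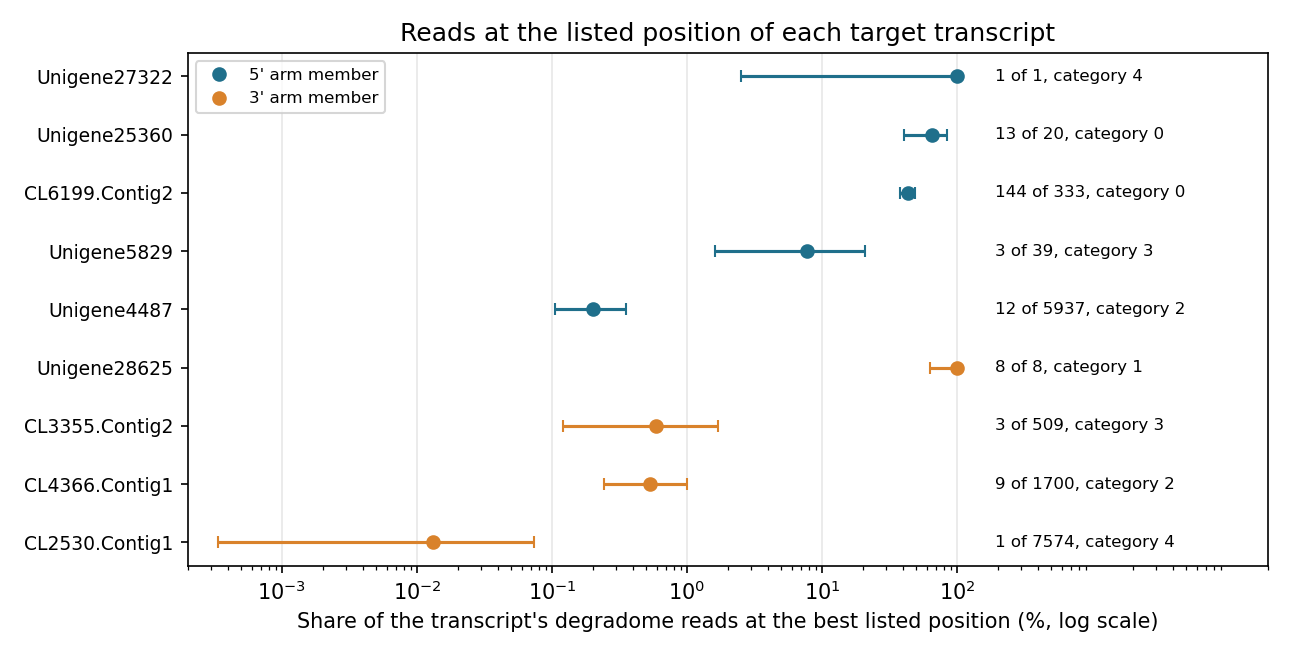
Share of a transcript's degradome reads at its best listed position (x axis, %, log scale) for the 9 target transcripts, with exact 95% binomial intervals as error bars, reads and the authors' category at the right, and colour for the arm of the listed member. CL6199.Contig2 combines a high share (43.2%) with many reads, while the shares of 100% rest on 1 and 8 reads.

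In the authors' deposited table, 2 of the 11 member positions (18.2%) were of category 0, against 33.3% of all 69 listed positions. For the 5′ arm alone it was 2 of 7 and for the 3′ arm 0 of 4. The listed position was the most-read of its transcript, ties counted, at 4 of 11 member positions (36.4%) and at 39.1% of all listed positions. On Unigene27322 and Unigene28625 it was the only position with reads, so it could not rank otherwise. How many of all listed positions were of this kind was not counted. A smallest deposited p of at most 0.05 was reached at 3 of 11 member positions and at 39.1% of all. All 3 member shares were near or under those of all listed positions. The median share of reads at the best position of the 9 transcripts was 7.69%.

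miR172, which acts after miR156 in the age pathway of Arabidopsis, had 43 reads in 4 sequences, so miR156 had 437 times its reads in these seedlings. That ratio compares different sequences in 1 library and has no replicate check. miR172 had 5 listed target transcripts against 9 for miR156, of which 5 were for the 5′ arm and 4 for the 3′ arm. The miR172 targets were not divided by arm or category.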

How the data were processed

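One small RNA library and 1 degradome library of pooled root, stem and leaf RNA were used. The small RNA table holds expected or estimated counts, raw reads that the authors divided among entries sharing them and did not normalize, per the file headers. They were rounded to whole numbers for intervals only. The degradome table gives reads by transcript position, with category, p-value and score per alignment deposited by the authors. Its columns have no header and were read from their values. The aligner and the build of the contigs were not given in the sources used here. Members were found by family name, and 3′-arm members by p3 or 3p in the name. Positions were counted once per transcript. Named items were the leading sequence of each family and arm, sequences with at least 1% of member reads, members with targets, and all their transcripts. Other named members complete the account of all 18. Members and lists were chosen with earlier results of these data known. Shares have exact Clopper-Pearson 95% intervals. A count of 0 allows up to 3 reads. Scripts ran in Python 3.11.15 with pandas 2.3.3, NumPy 2.4.6, matplotlib 3.10.9 and SciPy 1.17.1.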

Additional observations from a re-analysis of the deposited data

How the results depend on the processing

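The members' share of listed reads, 3.10%, became 20.0% without the table's most-read sequence and 2.99% without 3′-arm members, and stayed within its interval with at least 10 reads per sequence. The share of mtr-miR156e among member reads, 89.6%, was 90.1% with sequences that contain it added, and stayed within its interval with at least 10 reads per sequence. The 18 member sequences fell to 10 with at least 10 reads and to 11 placed on a contig. The 9 target transcripts fell to 2 at category 0, 5 at categories 0 to 2, 3 at a deposited p of at most 0.05 and 5 without 3′-arm members, and were 9 with assembly clusters merged. The median share at the best position did not move with reads divided by matches, reads with a single match or a window of 1 nt. That median is the value of Unigene5829 alone (3 of 39 reads), which was the same at each setting. It therefore says little about the other transcripts. For single transcripts, 3 of 27 alternative shares left their interval. These were the windows of 1 nt on CL6199.Contig2 (58.3%), CL4366.Contig1 (3.35%) and Unigene4487 (0.842%). Alternatives added after seeing the data moved reads between contigs. With mtr-miR156b-5p counted on contig_212930 the 3′-arm share there went from 75.1 to 16.9%, and on contig_268403 from 7.25 to 55.9%. With mtr-miR156e_L+2R-2 counted on contig_149866 the share on contig_38948 went from 0.559% to 10% of 10 reads and on contig_149866 stayed within its interval. No paired analysis was possible because each kind of library was made 1 time. Depth limits miR529, miR535, Unigene25360, Unigene27322 and Unigene28625, which rest on 20 reads or fewer each.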

Other observations

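The coordinates listed for hairpins on the minus strand did not share 1 convention. On contig_38948 a hairpin of 97 nt is listed at 32 to 128 and one of 111 nt at 111 to 221, yet the first sequence lies whole within the second. On contig_268403 a hairpin of 100 nt listed at 879 to 978 likewise lies whole within one of 110 nt listed at 932 to 1041. On contig_212930, plus strand, the nested pair had matching coordinates, 1310 to 1406 and 1308 to 1406. The hairpins listed on contigs for the members thus reduce to 4, and minus-strand positions should be read as the table gives them, which end they count from being unknown.

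No sequence or listed hairpin outside these families held GACAGAAGA, the letters common to the 5′ arm of miR156, on either strand. Since entries were named by their match to the registry, this absence follows in part from the naming. The 7 members placed on no contig carry precursors of other species, so their folding values do not describe birch hairpins.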
